A study of Rattus norvegicus with 9 samples.

Results

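The genes described here encode proteins that fold, oxidise, inspect and remove newly made proteins in the endoplasmic reticulum (ER), together with the sensors that control them. The set held 39 genes, named by symbol for their known roles, and all 39 were found among the 19608 genes of the deposited table. They were 5 stress sensors and transcription factors, 10 chaperones and cochaperones, 10 disulfide enzymes, 11 genes of ER-associated degradation and 3 translocon genes. The choice of genes used no measured value, but results of these data were known when it was made.

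Secretory and membrane proteins enter the ER through the Sec61 channel and are folded there by chaperones and protein disulfide isomerases. Proteins that do not fold are passed back to the cytosol and degraded by the proteasome. When unfolded proteins accumulate, the sensors IRE1 (Ern1), PERK (Eif2ak3) and ATF6 start the unfolded protein response. IRE1 splices Xbp1 mRNA into the form that encodes an active transcription factor, ATF6 is cut in the Golgi to release an active fragment, and PERK phosphorylates the translation factor eIF2-alpha, which lowers protein synthesis and favours translation of ATF4. The chaperone BiP (Hspa5), which also holds the sensors inactive, is a usual readout of the response. In the cochlea, damage by ototoxic drugs has been studied in relation to this response.

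HEI-OC1 cells descend from the organ of Corti, where the cochlear hair cells lie. The line is known to come from a mouse with a conditional viral T-antigen transgene, and its label calls it hair cell-like. The study compared cells given phosphate-buffered saline (PBS), the aminoglycoside antibiotic neomycin or the platinum drug cisplatin for 24 h, with 3 libraries in each of the 3 groups. All groups share the line, no genotype or dose is given in the sources used here, and the line name is labelled with a different last number in each sample. Nothing tells whether libraries of the same group were separate cultures, so the p-values reflect library-to-library spread alone, which may be technical.

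Depth lay between 27516629 and 40221089 reads per library. Values are FPKM, that is, fragment counts corrected for the length of each gene and for sequencing depth. Of 10 hair cell markers 9 were in the table and 2, Myo6 and Myo7a, had a mean of at least 1 FPKM over the libraries, while Pou4f3, Gfi1, Slc26a5, Otof, Espn and Tmc1 stayed at or near 0 (highest value in any library 0.0492 FPKM, for Tmc1). Most of the hair cell markers in the table were thus absent or nearly so, while Myo6 reached 15.7 FPKM and Myo7a 2.6 FPKM. Lhx3 was low (0.00849 to 0.24 FPKM). Of 8 supporting cell markers 7 were in the table and 4 had a mean of at least 1 FPKM. Summed, the supporting cell markers stood at 139 to 140 FPKM in PBS, 104 to 109 in neomycin and 143 to 153 in cisplatin. Most of this sum was Cdkn1b (87.1 to 129 FPKM). Of 8 fibroblast markers 7 had a mean of at least 1 FPKM. Their summed level was 8719 to 9114 FPKM in PBS, 7635 to 7770 in neomycin and 3228 to 3464 in cisplatin. Of that list Dcn was near 0 (0.0141 to 0.43 FPKM) and Lum was low (0.374 to 2.75 FPKM). The part of this fall in the results below was not tested. In bulk RNA, fewer cells of a type and less RNA per cell cannot be told apart.

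Many of these genes are known to be controlled through the ER stress response element (ERSE), which ATF6 and XBP1 bind beside the factor NF-Y. Promoters from 250 bases before to 50 bases after the annotated start were read from RefSeq (rat assembly GRCr8), where 30 of the 39 genes had an entry. Since the organism of the labels is rat and the cells are known as a mouse line, these sequences may differ from those of the cells. The element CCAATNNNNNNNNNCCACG, searched on both strands, was found in 22 of 33469 promoters in the table (0.0657%) and in 9 of the 30 genes (30%). The related element ERSE-II, ATTGGNCCACG, was found in 17 promoters (0.0508%) and in 3 of the 30 genes (10%). The core TGACGTG of the UPRE, an element that XBP1 and ATF6 bind, was found in 605 promoters (1.81%) and in 4 of the 30 genes (13.3%), and in Hyou1 it overlapped an ERSE-II. The stretches below, on the strand of the gene, are a selection from the 12 genes with an ERSE or ERSE-II. With cisplatin Hspa5, Xbp1, Calr and Herpud1 fell, Dnajc3 and Dnajb11 rose, and Creld2 and Ero1b missed the test. Canx, Hsp90b1 and Hyou1, which fell, and Derl3, which was not tested, also held an element and are not shown. The boxes are alike because exact letters were searched, so their likeness is not a result. Capitals mark the CCAAT and CCACG boxes, or ATTGG and CGTGG where a box lies on the other strand, with ERSE-II in Herpud1 and Dnajb11 and ERSE in the others.
Hspa5, chr3:38452963-38453001, plus strand: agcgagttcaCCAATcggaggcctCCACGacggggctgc
Xbp1, chr14:84604548-84604586, plus strand: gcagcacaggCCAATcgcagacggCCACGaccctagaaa
Dnajc3, chr15:102432524-102432562, plus strand: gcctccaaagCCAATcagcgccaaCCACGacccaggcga
Calr, chr19:40213125-40213163, plus strand: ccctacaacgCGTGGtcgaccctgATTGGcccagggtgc
Creld2, chr7:121789229-121789267, plus strand: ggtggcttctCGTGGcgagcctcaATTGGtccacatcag
Ero1b, chr17:92941448-92941486, plus strand: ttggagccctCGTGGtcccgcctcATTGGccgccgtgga
Herpud1, chr19:10614811-10614841, minus strand: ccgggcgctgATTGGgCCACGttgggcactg
Dnajb11, chr11:91672790-91672820, minus strand: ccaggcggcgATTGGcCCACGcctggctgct

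With cisplatin more of these genes fell than rose, although over all genes the calls went the other way. Of the 38 genes tested 21 fell and 7 rose against PBS (limma on log2(FPKM + 1), adjusted p under 0.05), against 30.5% of all 10532 tested genes lower and 47.5% higher. As shares of the 38 genes these were 55.3% lower and 18.4% higher. The median log2 fold change was -0.22 against 0.12 over all genes, and single genes ranged from -1.29 (Atf6) to 0.85 (Manf). Derl3 was the member not tested, since it had 0 to 12 reads per library (0 to 0.0629 FPKM), where 3 reads equal 0.0127 to 0.0186 FPKM.

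With neomycin 13 of the 38 genes fell and 6 rose against PBS, where 28.7% of all tested genes were lower and 37.5% higher. The shares of the 38 were 34.2% and 15.8%, and the median log2 fold change was -0.03 against 0.04 over all genes. The range ran from -0.99 (Herpud1) to 0.80 (Edem3). The drugs were each compared with the same PBS libraries, so the direct comparison tests where they differ. Against neomycin, cisplatin libraries were lower in 19 genes and higher in 11, where 36.6% of all tested genes were lower and 45% higher, with a median of -0.12 against 0.07 over all genes.

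These splits depended in part on scaling. TMM factors aim to set the bulk of genes level between libraries. With them the median of all genes moved from 0.12 to -0.01 for cisplatin against PBS. There 24 of the 38 genes were then lower and 5 higher, against 39.5% and 37.2% of all tested genes. For neomycin against PBS the counts were 18 lower and 5 higher, against 36.7% and 29.5%. In that comparison the median of all genes moved from 0.04 to -0.04, so it changed sign. The median of the 38 genes moved from -0.03 to -0.11. For cisplatin against neomycin they were 20 lower and 11 higher, against 39.7% and 41.6%.

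Summed over the 39 genes, the level was 4628 to 4921 FPKM in PBS, 4176 to 4284 in neomycin and 3795 to 3901 in cisplatin. The 3 groups did not overlap. As a share of all reads the set took 1.17 ± 0.0327% with PBS, 1.04 ± 0.00791% with neomycin and 0.918 ± 0.0146% with cisplatin (n = 3, ± SD). These sums rest mainly on a few abundant genes, of which Calr, P4hb and Pdia6 stood highest in PBS (means 923, 668 and 555 FPKM).

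**Figure D1:**
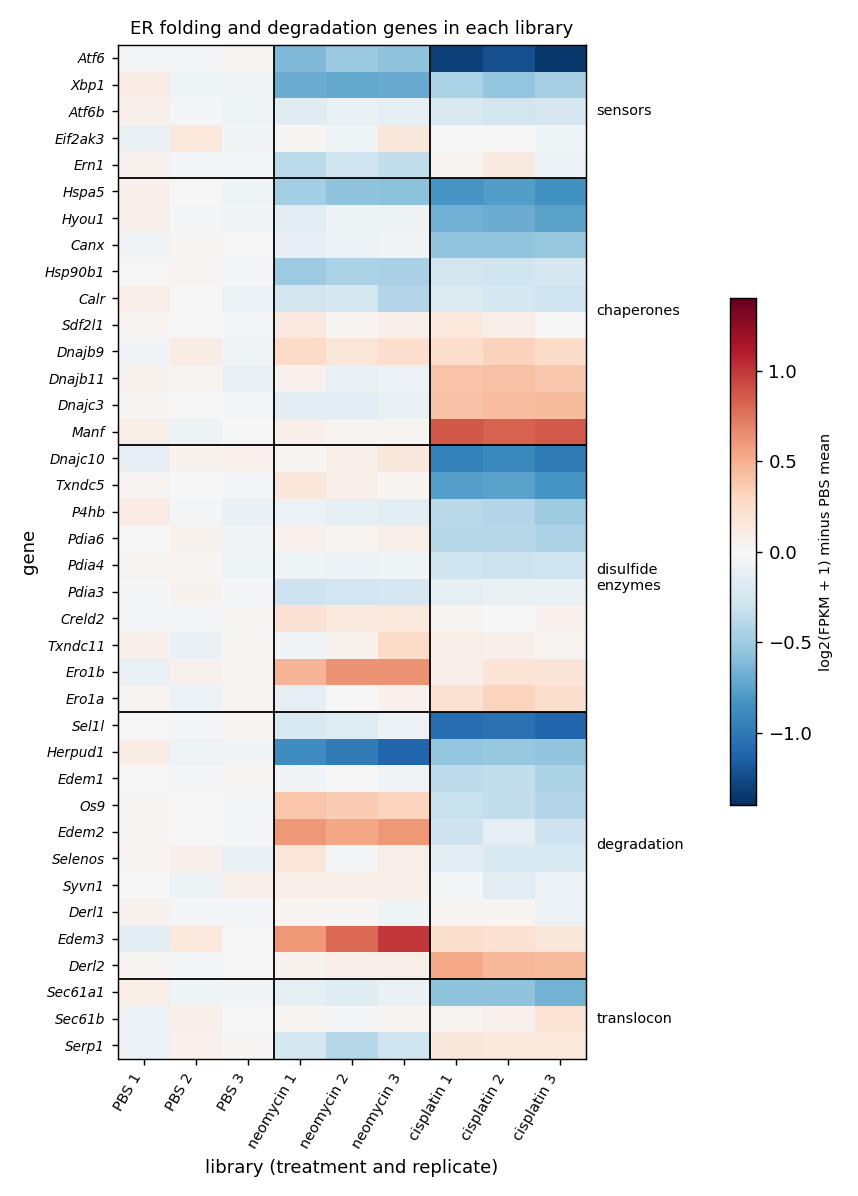
Level of each of the 38 tested genes (rows, ordered by role) in each of the 9 libraries (columns), as log2(FPKM + 1) minus the PBS mean of the gene. Blue is lower and red is higher than PBS; the deepest blue in the cisplatin columns is Atf6 and the deepest red is Manf, while Edem2, Edem3 and Os9 are red in neomycin.

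Among the sensors and their transcription factors, Atf6 fell most with cisplatin and Xbp1 fell most with neomycin. PERK mRNA passed the test in no comparison. Atf6 (Entrez gene 304962), the membrane-bound transcription factor that is released by cleavage, stood at 30.2, 30.2 and 31.3 FPKM in PBS. In neomycin it was 19.5, 21 and 20.3 FPKM, and in cisplatin 11.8, 12.5 and 11.4 FPKM. The 3 groups did not overlap. Atf6 fell by 61% with cisplatin (log2 fold change -1.29 ± 0.05 SE, limma adjusted p = 3.1e-11). It fell by 33.7% with neomycin (-0.57 ± 0.05, adjusted p = 3.5e-07). Between the drugs the log2 fold change, cisplatin against neomycin, was -0.72 ± 0.05 (adjusted p = 7.4e-09). Its paralogue Atf6b, which is cleaved in the same way, had smaller log2 fold changes, -0.24 ± 0.05 with cisplatin (adjusted p = 2.7e-04) and -0.14 ± 0.05 with neomycin (adjusted p = 0.017). The neomycin call was lost without PBS replicate 1 (adjusted p = 0.062) or neomycin replicate 1 (adjusted p = 0.0568). Within each library, Atf6 stood at 0.752 ± 0.0466 of the level of Atf6b in PBS, 0.548 ± 0.0075 in neomycin and 0.346 ± 0.0215 in cisplatin (n = 3, ± SD). This ratio and the others below were chosen after their values were seen and carry no test.

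Xbp1, the target of IRE1 splicing, fell with either drug, and its cisplatin libraries lay above its neomycin libraries (log2 fold change 0.22 ± 0.05, adjusted p = 7.9e-04). It stood at 58.1, 51.7 and 52.7 FPKM in PBS, 33, 32.5 and 32.8 FPKM in neomycin and 39.5, 37 and 38.8 FPKM in cisplatin. The log2 fold change was -0.71 ± 0.05 with neomycin (adjusted p = 4.7e-08) and -0.48 ± 0.05 with cisplatin (adjusted p = 6.0e-07). A value per gene does not separate spliced from unspliced Xbp1 mRNA. Ern1, which encodes IRE1, was at 4.69 to 5 FPKM in PBS and fell with neomycin to 3.46 to 3.8 FPKM (log2 fold change -0.33 ± 0.07, adjusted p = 5.4e-04). With cisplatin it was 4.49 to 5.34 FPKM, a range that holds the PBS values, and it stood above neomycin by 0.36 ± 0.07 (adjusted p = 1.5e-04). Eif2ak3, which encodes PERK, passed the test in none of the comparisons, with 95% intervals of -0.17 to 0.14 for cisplatin and -0.12 to 0.19 for neomycin against PBS. In all, 3 of these 5 genes of sensors and transcription factors fell with cisplatin (30.5% of all tested genes). With neomycin 4 of the 5 fell (28.7% of all tested genes).

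**Figure D2:**
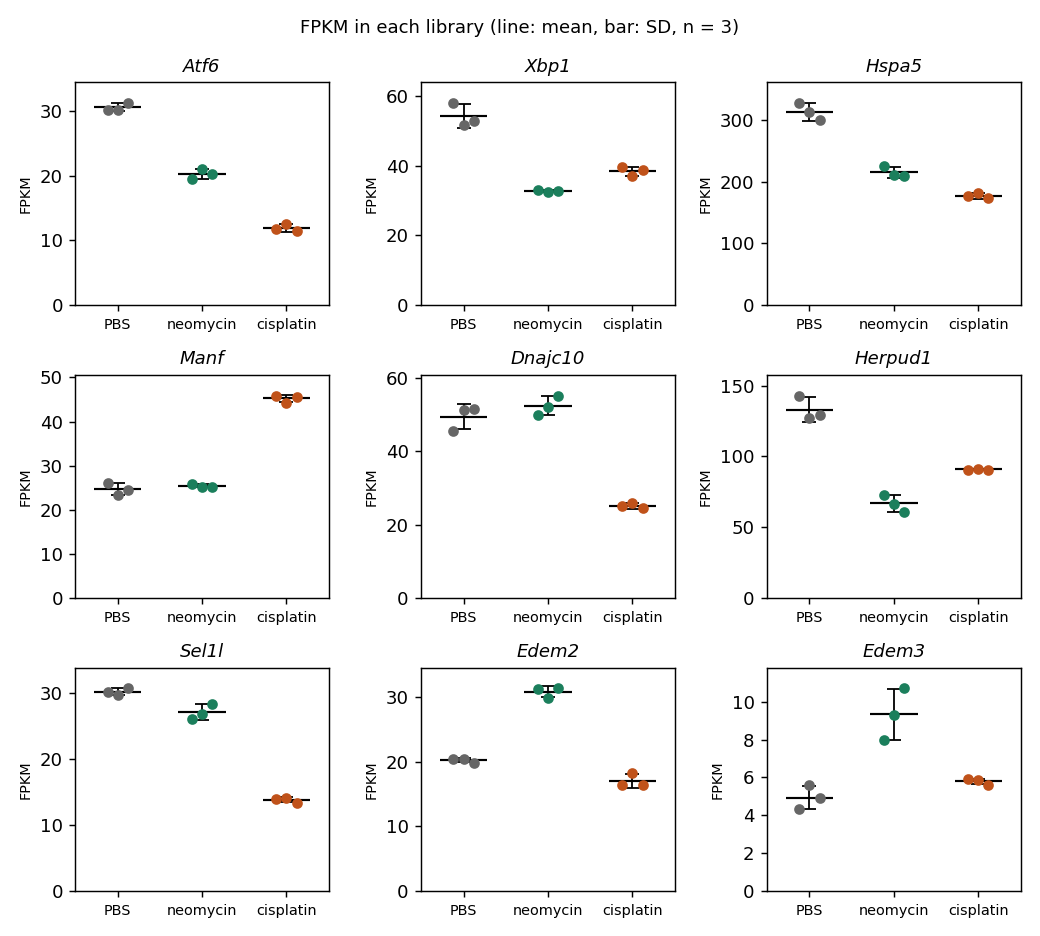
FPKM of 9 genes in each library, by treatment (points: libraries; line: mean; bar: SD, n = 3). Atf6, Hspa5 and Sel1l step down from PBS to cisplatin, Xbp1 and Herpud1 are lowest in neomycin, Manf is high in cisplatin only and Edem2 and Edem3 are high in neomycin.

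The chaperones divided. The large chaperones of the ER lumen and membrane fell with cisplatin, while several of their cochaperones rose. Of the 10 genes 5 were lower and 4 higher (50% and 40%, against 30.5% and 47.5% of all tested genes). The share that rose was thus not above that of all tested genes. BiP (Hspa5, Entrez gene 25617), the ER member of the Hsp70 family, carried 328, 312 and 299 FPKM in PBS. It carried 225, 211 and 209 FPKM in neomycin and 176, 182 and 173 FPKM in cisplatin. No group overlapped another. BiP mRNA fell by 43.4% with cisplatin (log2 fold change -0.82 ± 0.05, adjusted p = 9.9e-10). It fell by 31.4% with neomycin (-0.54 ± 0.05, adjusted p = 2.4e-07). Hyou1, a large Hsp70-related protein that acts as an exchange factor for BiP, was at 28.8 to 31.3 FPKM in PBS and fell with cisplatin to 17.3 to 18.2 FPKM (-0.70 ± 0.05, adjusted p = 1.1e-08). Its neomycin values of 26.5 to 28.3 FPKM gave an interval of -0.20 to 0.01. Canx, the membrane lectin chaperone calnexin, had a like pattern, at 157 to 165 FPKM in PBS, 149 to 157 in neomycin and 110 to 111 in cisplatin. Its log2 fold change was -0.54 ± 0.04 with cisplatin (adjusted p = 1.3e-08) and its neomycin interval reached from -0.16 to 0.00. With TMM factors Hyou1 and Canx were called lower with neomycin (adjusted p of 0.00588 and 0.00158). Canx was also called with array weights (adjusted p = 0.0239) and without PBS replicate 1 (adjusted p = 0.0421).

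Hsp90b1 and Calr fell with both drugs. Hsp90b1 (GRP94), the ER member of the Hsp90 family, was lowest in neomycin, at 316 to 326 FPKM in PBS, 225 to 235 in neomycin and 263 to 271 in cisplatin. Its log2 fold change was -0.47 ± 0.04 with neomycin (adjusted p = 1.4e-07) and -0.26 ± 0.04 with cisplatin (adjusted p = 1.9e-05). Calr, the soluble lectin chaperone calreticulin and the most abundant of the 39 genes, carried 872 to 983 FPKM in PBS, 696 to 776 in neomycin and 758 to 809 in cisplatin. The neomycin and cisplatin libraries overlapped, and the interval of their difference was -0.05 to 0.18.

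Manf rose with cisplatin where BiP fell. Manf (Entrez gene 315989) encodes a small secreted neurotrophic factor that binds BiP in the ER. It stood at 26.1, 23.3 and 24.5 FPKM in PBS, 25.8, 25.2 and 25.2 FPKM in neomycin and 45.9, 44.3 and 45.6 FPKM in cisplatin. PBS and neomycin overlapped, and all cisplatin libraries lay above both. The rise was 84% (log2 fold change 0.85 ± 0.05, adjusted p = 9.3e-10), the largest of the 38 genes, and against neomycin it was 0.81 ± 0.05 (adjusted p = 1.1e-09). The interval for neomycin against PBS was -0.06 to 0.15.

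Of the J-domain proteins, which stimulate the ATPase of BiP, Dnajb11, Dnajc3 and Dnajb9 rose with cisplatin. Dnajc10, described with the disulfide enzymes, fell. Of all tested genes 47.5% rose with cisplatin, so a rise alone does not set these genes apart. With TMM factors the log2 fold changes of Dnajb11, Dnajc3 and Dnajb9 were 0.25, 0.29 and 0.16, and each stayed called. Dnajb11 (ERdj3) stood at 69.3 to 76.6 FPKM in PBS, 68.5 to 77.2 in neomycin and 96.1 to 98.3 in cisplatin, a log2 fold change of 0.39 ± 0.05 against PBS (adjusted p = 8.4e-06). Dnajc3 (p58IPK), also known as an inhibitor of PERK, stood at 13.5 to 13.9 FPKM in PBS and 18.6 to 19 in cisplatin (0.43 ± 0.05, adjusted p = 7.0e-07). Its values in neomycin were 12.2 to 12.7 FPKM, a small fall (-0.13 ± 0.05, adjusted p = 0.0184) that did not pass without neomycin replicate 2 (adjusted p = 0.0535). Dnajb9 (ERdj4), which brings BiP to IRE1, rose with either drug. It stood at 2.63 to 3.07 FPKM in PBS, 3.28 to 3.56 in neomycin and 3.49 to 3.75 in cisplatin. Its log2 fold changes were 0.23 ± 0.07 (adjusted p = 0.0078) and 0.27 ± 0.07 (adjusted p = 0.00161). With quantile normalization the neomycin call was lost (adjusted p = 0.112). Sdf2l1, a partner of Dnajb11, stood at 47 to 53 FPKM over all libraries and passed in no comparison.

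Set against BiP in the same library, Manf, Dnajb11 and Dnajc3 stood higher in both treated groups than in PBS. With neomycin BiP itself fell by 31.4%, while Manf and Dnajb11 missed the test and Dnajc3 fell slightly. The neomycin ratios thus rose through their denominator. With cisplatin BiP fell by 43.4%, while Manf rose by 84%, Dnajb11 by 31.7% and Dnajc3 by 37.6%. The cisplatin ratios thus rose through both terms. The ratio of Manf to Hspa5 was 0.0787 ± 0.00371 in PBS, 0.118 ± 0.00313 in neomycin and 0.256 ± 0.0113 in cisplatin (n = 3, ± SD). Scaling between libraries does not enter such a ratio. For Dnajb11 it went from 0.236 to 0.334 and 0.551, and for Dnajc3 from 0.0437 to 0.0577 and 0.106. In these 3 ratios no group overlapped another. Hsp90b1 to Hspa5 was 0.969 to 1.06 in PBS, 1 to 1.12 in neomycin and 1.44 to 1.57 in cisplatin. PBS and neomycin thus overlapped in this ratio. Hsp90b1 itself fell by 16.3% with cisplatin, so its ratio rose there through the denominator.

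**Figure D3:**
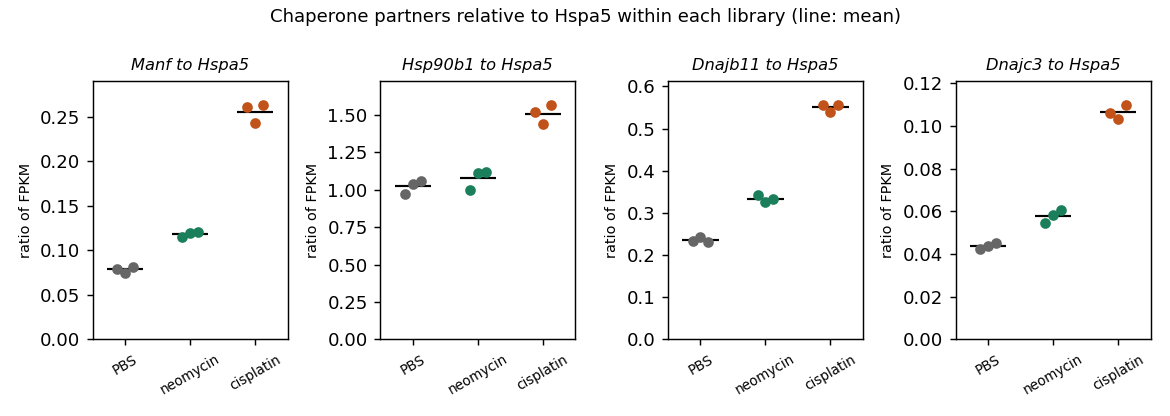
Ratio of the FPKM of 4 chaperone partners to that of Hspa5 within each library, by treatment (points: libraries; line: mean of 3). All cisplatin libraries lie above all PBS and neomycin libraries in each panel, as for Manf, at 0.243 to 0.264 in cisplatin against 0.0746 to 0.0819 in PBS. Hspa5, the denominator, was itself lower with both drugs.

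Of the 10 disulfide enzymes 6 fell and 1 rose with cisplatin, where 30.5% of all tested genes were lower and 47.5% higher. With neomycin 1 fell, 2 rose and 7 missed the test, where 28.7% of all tested genes were lower and 37.5% higher. With TMM factors 3 fell and 1 rose with neomycin, where 36.7% of all tested genes were lower and 29.5% higher. P4hb and Pdia4 were then called lower (limma adjusted p of 0.00575 and 0.00556) and Creld2 was not called. Dnajc10 (ERdj5), a reductase that opens disulfide bonds of proteins bound for degradation, was at 45.5, 51.2 and 51.6 FPKM in PBS and 50, 52.1 and 55.2 FPKM in neomycin. In cisplatin it was at 25.1, 26 and 24.4 FPKM. All cisplatin libraries lay below all others, a log2 fold change of -0.94 ± 0.06 against PBS (adjusted p = 1.8e-09) and -1.03 ± 0.06 against neomycin (adjusted p = 5.1e-10). Txndc5, a disulfide isomerase with thioredoxin domains, showed the same order, at 129 to 136 FPKM in PBS, 135 to 147 in neomycin and 73.3 to 78 in cisplatin (-0.79 ± 0.04 against PBS, adjusted p = 1.1e-09). With neomycin it missed the threshold (0.09 ± 0.04, adjusted p = 0.0774). The call was gained when PBS replicate 1 (adjusted p = 0.0428) or neomycin replicate 3 (adjusted p = 0.0357) was left out. Quantile normalization, array weights and a replicate block also gave this limma call (adjusted p of 0.0238, 0.0306 and 0.0332).

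The protein disulfide isomerases P4hb, Pdia4 and Pdia6 fell with cisplatin, with log2 fold changes of -0.43, -0.29 and -0.41 (limma adjusted p of 3.6e-06, 9.0e-06 and 1.8e-07). P4hb, the founding isomerase of the family, was the most abundant, at 625 to 722 FPKM in PBS and 472 to 509 in cisplatin. With neomycin its values of 599 to 629 FPKM just missed the threshold (adjusted p = 0.052). They passed without PBS replicate 3 (adjusted p = 0.0151) or neomycin replicate 1 (adjusted p = 0.0448). TMM factors, quantile normalization, voom, a replicate block and a minimum of 5 FPKM also gave this limma call (adjusted p of 0.0482 or lower). Pdia3, the isomerase that works with calnexin and calreticulin on glycoproteins, had another order, at 341 to 362 FPKM in PBS, 285 to 296 in neomycin and 320 to 325 in cisplatin. It fell with neomycin (log2 fold change -0.26 ± 0.04, adjusted p = 4.4e-05). Its smaller fall with cisplatin (-0.11 ± 0.04, adjusted p = 0.0193) was lost without PBS replicate 2 (adjusted p = 0.103) or cisplatin replicate 1 (adjusted p = 0.0667). The ratio of Pdia6 to Pdia3 was 1.58 to 1.62 in PBS, 1.97 to 2.02 in neomycin and 1.27 to 1.31 in cisplatin, with no overlap.

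The ER oxidases pass electrons from the isomerases to oxygen. Of these, Ero1a stood higher with cisplatin than with neomycin (log2 fold change 0.28, limma adjusted p = 5.2e-04). Ero1a stood at 16 to 17.5 FPKM in PBS and rose to 19.8 to 21.2 FPKM in cisplatin (0.25 ± 0.06, adjusted p = 0.00134), a call that TMM factors ended (adjusted p = 0.103). Ero1b was at 0.846, 1.07 and 1.03 FPKM in PBS, 1.75, 2.05 and 2.06 FPKM in neomycin and 1.11, 1.26 and 1.24 FPKM in cisplatin. It rose with neomycin (0.58 ± 0.08, adjusted p = 1.6e-05). Its PBS mean of 0.983 FPKM lay under the minimum mean of 1 FPKM, which it passed through the treated libraries. Creld2, a disulfide isomerase and ER stress marker, was at 36.6 to 37.9 FPKM in PBS and rose slightly with neomycin, to 40.9 to 42.8 FPKM (0.16 ± 0.04, adjusted p = 0.00374), and lost that call with TMM factors (adjusted p = 0.138). Txndc11, at 4.4 to 5.92 FPKM over all libraries, passed in no comparison.

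Edem2 and Os9, at the step of degradation that selects glycoproteins, rose with neomycin and fell with cisplatin. Edem1, Edem2 and Edem3 encode mannosidase-like proteins that mark misfolded glycoproteins, and Os9 encodes a lectin that reads the mark. Edem2 was at 20.5, 20.4 and 19.9 FPKM in PBS, 31.3, 29.9 and 31.4 FPKM in neomycin and 16.4, 18.3 and 16.4 FPKM in cisplatin. The 3 groups did not overlap. Edem2 rose with neomycin by 0.58 ± 0.05 (adjusted p = 3.5e-07) and had a log2 fold change of -0.24 ± 0.05 with cisplatin (adjusted p = 5.7e-04). Cisplatin against neomycin gave -0.82 ± 0.05 (adjusted p = 2.1e-09). Os9 followed it, at 39.9 to 40.9 FPKM in PBS, 50.7 to 53.3 in neomycin and 30.2 to 32.5 in cisplatin, with log2 fold changes of 0.35 ± 0.04 for neomycin (adjusted p = 7.4e-06) and -0.35 ± 0.04 for cisplatin (adjusted p = 3.6e-06). Edem3 stood at 4.32, 5.57 and 4.91 FPKM in PBS, 8, 9.27 and 10.7 FPKM in neomycin and 5.89, 5.86 and 5.62 FPKM in cisplatin. It rose with neomycin by 0.80 ± 0.09 (adjusted p = 4.5e-06). With cisplatin it missed the threshold (adjusted p = 0.0599). It passed without PBS replicate 2, neomycin replicate 1 or neomycin replicate 3 (adjusted p of 0.0183, 0.0325 and 0.0339). Voom, a replicate block and a fit on 2 groups also gave this limma call (adjusted p of 0.026, 0.0373 and 0.0311). Edem1 was at 26.9 to 28.4 FPKM in PBS and neomycin and fell with cisplatin to 20.2 to 21.6 FPKM (-0.38 ± 0.04, adjusted p = 2.0e-06). With TMM factors Edem1 was also called lower with neomycin (-0.12, limma adjusted p = 0.0356).

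The scaffold of the membrane ubiquitin ligase fell with cisplatin and the ligase itself missed the test. Sel1l (Entrez gene 314352), which links substrate lectins to the ligase HRD1 (Syvn1), was at 30.2, 29.7 and 30.7 FPKM in PBS and 26, 26.8 and 28.4 FPKM in neomycin. In cisplatin it was at 13.9, 14.1 and 13.4 FPKM. No group overlapped another. Sel1l fell by 54.3% with cisplatin (-1.08 ± 0.05, adjusted p = 9.8e-11). It fell by 10.4% with neomycin (-0.15 ± 0.05, adjusted p = 0.0103). Syvn1 stood at 9.42 to 10.5 FPKM in PBS and 8.87 to 9.72 in cisplatin, with an interval of -0.21 to 0.03, and was called lower with TMM factors (-0.23, adjusted p = 0.00175). The ratio of Sel1l to Syvn1 was 3.04 ± 0.109 in PBS, 2.54 ± 0.122 in neomycin and 1.49 ± 0.0912 in cisplatin (n = 3, ± SD).

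Herpud1 (HERP), a ubiquitin-domain protein that organises the ligase complex, fell most with neomycin. It was at 143, 127 and 129 FPKM in PBS, 72.5, 66.7 and 61 FPKM in neomycin and 90.7, 91.4 and 90.1 FPKM in cisplatin, with no overlap. Its log2 fold change was -0.99 ± 0.06 with neomycin (adjusted p = 1.2e-08) and -0.55 ± 0.06 with cisplatin (adjusted p = 1.1e-06). Among the derlins, rhomboid-like proteins of the retrotranslocation channel, Derl2 was at 15.3 to 16.1 FPKM in PBS and rose with cisplatin to 21.7 to 23.1 FPKM (0.48 ± 0.05, adjusted p = 3.4e-07). Derl1 was at 39.5 to 43.4 FPKM over all libraries and passed in no comparison, although TMM factors gave it a call with cisplatin (-0.16, adjusted p = 0.0118). Selenos, a selenoprotein that joins derlins to the ATPase p97, fell with cisplatin (-0.20 ± 0.05, adjusted p = 0.00481). Over the 10 tested degradation genes 6 fell and 1 rose with cisplatin, against 30.5% and 47.5% of all tested genes. With neomycin 2 fell and 3 rose (20% and 30%), near the shares of all tested genes (28.7% and 37.5%).

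In the translocon the pore subunit fell with cisplatin, whereas a second channel subunit missed the test. Sec61a1, the pore-forming subunit, stood at 184, 166 and 168 FPKM in PBS, 157, 153 and 162 FPKM in neomycin and 116, 116 and 109 FPKM in cisplatin. Sec61a1 fell with cisplatin (-0.59 ± 0.05, adjusted p = 4.3e-08). The fall with neomycin (-0.13 ± 0.05, adjusted p = 0.0266) was lost without PBS replicate 1, neomycin replicate 1 or neomycin replicate 2 (adjusted p of 0.109, 0.0523 and 0.0972). Sec61b, a small subunit of the same channel, was at 155 to 187 FPKM over all libraries and passed in no comparison. The ratio of Sec61b to Sec61a1 was 0.847 to 1.04 in PBS and 1.45 to 1.72 in cisplatin. Serp1 (RAMP4), a small protein bound to the translocon, was at 85 to 94.3 FPKM in PBS and fell with neomycin to 68.3 to 76.1 FPKM (-0.30 ± 0.05, adjusted p = 1.1e-04). Its small rise with cisplatin, to 99.9 to 101 FPKM (0.15 ± 0.05, adjusted p = 0.0115), came to 0.00 with TMM factors (adjusted p = 0.936).

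**Figure D4:**
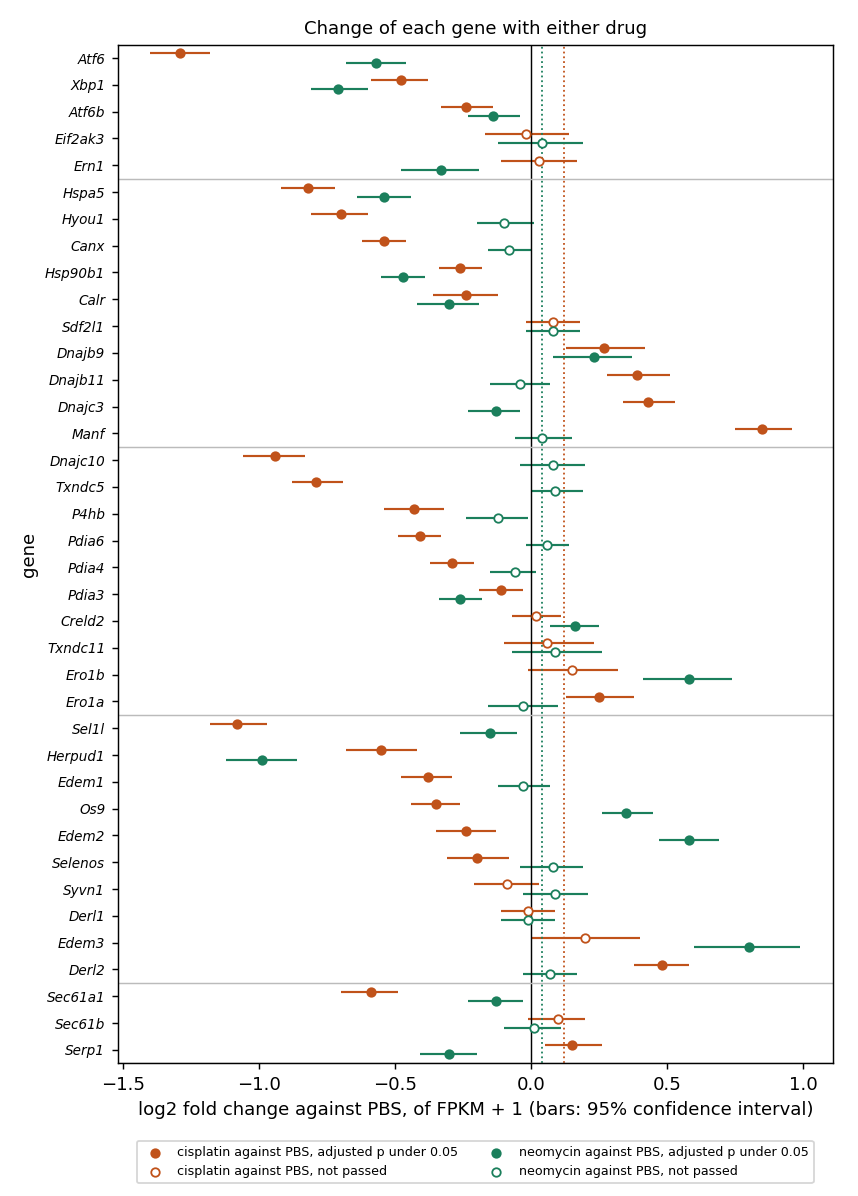
Log2 fold change of FPKM + 1 against PBS for each of the 38 tested genes with cisplatin (orange) and neomycin (green), with 95% confidence intervals from limma. Filled points had an adjusted p under 0.05 and dotted lines mark the median of all tested genes (0.12 and 0.04); Atf6, Sel1l and Dnajc10 lie farthest left with cisplatin and Herpud1 and Xbp1 with neomycin.

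Genes with an ERSE or ERSE-II in the promoter window went in both directions. Of the 11 tested genes with either element 7 fell and 2 rose with cisplatin, with a median of -0.26. Of the 18 tested genes with a promoter entry and neither element 9 fell and 3 rose, with a median of -0.15. With neomycin the counts were 6 lower and 2 higher (median -0.13) for the genes with an element and 3 lower and 3 higher (median 0.08) for those without. Over all tested genes 30.5% were lower and 47.5% higher with cisplatin, and 28.7% lower and 37.5% higher with neomycin. No test was made of this split, and a match of letters is not evidence that a factor binds there.

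Genes that act beside these 39 were counted from lists fixed by known role. A list of proteases and factors that process the sensors or act beside them, subunits of NF-Y and related ER membrane transcription factors had 8 genes higher and 7 lower of 16 tested with cisplatin (50% and 43.8%, against 47.5% and 30.5% of all tested genes). Mbtps1, the site-1 protease that makes the first cut in ATF6, fell from 54.8 ± 2.21 FPKM to 36 ± 2 FPKM with cisplatin (SD, n = 3; -0.59 ± 0.05, adjusted p = 5.2e-08). Mbtps2, the site-2 protease, fell with cisplatin (-0.35 ± 0.09, adjusted p = 0.002) and rose with neomycin (0.36 ± 0.09, adjusted p = 0.0022). Nfyb, a subunit of NF-Y, rose with cisplatin from 11.7 ± 0.721 to 27.1 ± 1.43 FPKM (1.14 ± 0.08, adjusted p = 5.8e-09). With neomycin 7 genes of this list fell and 4 rose (43.8% and 25%, against 28.7% and 37.5% of all tested genes), among them the ER membrane factors Creb3l1 (-0.51 ± 0.05) and Creb3l2 (0.60 ± 0.06).

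In a broad list around the PERK and ATF4 branch 17 of 20 tested genes fell with neomycin, where 28.7% of all tested genes were lower. The median was -0.68 against 0.04 over all genes. The list also held the other eIF2-alpha kinase genes Eif2ak1, Eif2ak2 and Eif2ak4. It did not hold PERK itself (Eif2ak3), which passed the test in no comparison, so its counts are not those of the PERK arm alone. With cisplatin 9 fell and 7 rose (45% and 35%, against 30.5% and 47.5% of all tested genes). The largest cisplatin changes of the list were falls. Among them, Ddit4, an inhibitor of mTORC1, was at -1.65 ± 0.07 (limma adjusted p = 1.1e-10). Sesn2, a sestrin, was at -1.42 ± 0.06 and Chac1, a glutathione-degrading enzyme, at -1.28 ± 0.06 (limma adjusted p of 1.1e-10 and 9.3e-11). Atf4, the transcription factor of the branch, stood at 359 ± 10.1 FPKM in PBS, 244 ± 13.4 in neomycin and 483 ± 16.6 in cisplatin (n = 3, ± SD). Ddit3 (CHOP), a target of ATF4 known for its part in cell death, stood at 166 ± 10.3, 78.1 ± 6.71 and 224 ± 2.53 FPKM. Ppp1r15a (GADD34), which returns eIF2-alpha to its unphosphorylated state, stood at 99.6 ± 7.6, 44.7 ± 6.55 and 160 ± 4.78 FPKM. Atf4, Ddit3 and Ppp1r15a rose with cisplatin and fell with neomycin, with log2 fold changes between the drugs of 0.98 for Atf4, 1.51 for Ddit3 and 1.82 for Ppp1r15a (limma adjusted p of 1.4e-10, 1.9e-11 and 8.8e-11). Trib3, another ATF4 target, fell with both, from 189 ± 25.9 FPKM to 56.6 ± 7.31 in neomycin and 61.3 ± 4.48 in cisplatin. This list was drawn up with the earlier results in view and is not independent evidence of its direction.

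Among other folding enzymes 12 of 31 tested genes rose and 10 fell with cisplatin, and 12 rose and 11 fell with neomycin. These shares (38.7% and 32.3%, and 38.7% and 35.5%) lay near those of all tested genes, 47.5% higher and 30.5% lower with cisplatin and 37.5% and 28.7% with neomycin. Sil1, an exchange factor for BiP, fell from 5.49 ± 0.452 FPKM to 1.43 ± 0.205 with cisplatin (-1.42 ± 0.08, adjusted p = 9.2e-10). Serpinh1 (HSP47), the collagen chaperone, fell from 750 ± 36.9 FPKM to 467 ± 13.4 in neomycin and 387 ± 9.11 in cisplatin. Sdf2, the paralogue of Sdf2l1, rose with neomycin from 36.5 ± 2.03 to 64.8 ± 2.26 FPKM (0.81 ± 0.05, adjusted p = 1.1e-08).

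Of 23 glycan genes 12 were lower and 7 higher with cisplatin (52.2% and 30.4%, against 30.5% and 47.5% of all tested genes). With neomycin 10 were lower and 4 higher (43.5% and 17.4%, against 28.7% and 37.5%). Uggt1, which returns misfolded glycoproteins to the calnexin cycle, fell with cisplatin from 19.4 ± 0.1 to 12.4 ± 0.95 FPKM (-0.61 ± 0.06, adjusted p = 1.7e-07). With TMM factors the cisplatin split of this list was 13 lower and 1 higher (56.5% and 4.35%). Of all tested genes 39.5% were then lower and 37.2% higher. Of 28 targeting and translocation genes 16 were higher and 6 lower with cisplatin (57.1% and 21.4%), near the shares of all tested genes (47.5% and 30.5%). With neomycin 2 were higher and 9 lower (7.14% and 32.1%, against 37.5% and 28.7%). With TMM factors the counts became 11 higher and 10 lower with cisplatin, and 2 higher and 14 lower with neomycin. The cisplatin shares (39.3% and 35.7%) lay near those of all tested genes on that scale (37.2% and 39.5%). The neomycin shares were 7.14% and 50% against 29.5% and 36.7%. Sec11c, a catalytic subunit of signal peptidase, rose with cisplatin (0.80 ± 0.08, adjusted p = 3.0e-07), whereas Ssr3, of the translocon-associated TRAP complex, fell (-0.86 ± 0.04, adjusted p = 4.1e-10).

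Of 32 other degradation factors 16 were higher and 12 lower with cisplatin, and 6 higher and 16 lower with neomycin. The cisplatin shares (50% and 37.5%) lay near those of all tested genes (47.5% and 30.5%), and the neomycin shares were 18.8% and 50% against 37.5% and 28.7%. With TMM factors the cisplatin split was 11 higher and 14 lower. With neomycin it was then 0 higher and 19 lower by limma, with the same counts of 0 and 19 at an unadjusted p under 0.05. On that scale 37.2% of all tested genes were higher and 39.5% lower with cisplatin, and 29.5% and 36.7% with neomycin. Vcp, the p97 ATPase that pulls substrates from the ER membrane, fell from 167 ± 4.86 FPKM to 155 ± 4.6 in neomycin and 137 ± 3.21 in cisplatin. Ufd1, its cofactor, stood at 74.8 ± 2.8 FPKM in cisplatin against 36.3 ± 0.989 in neomycin (1.02 ± 0.05, adjusted p = 9.4e-11). Of 31 genes of ER exit and retrieval 17 were lower and 4 higher with cisplatin (54.8% and 12.9%, against 30.5% and 47.5% of all tested genes). With neomycin 16 were lower and 2 higher (51.6% and 6.45%, against 28.7% and 37.5%). With TMM factors 23 were lower and 2 higher with cisplatin. With neomycin limma then gave 24 lower and 0 higher (1 higher at an unadjusted p under 0.05). The shares of all tested genes were then 39.5% lower and 37.2% higher with cisplatin, and 36.7% and 29.5% with neomycin. Sec31a, of the outer COPII coat, fell with cisplatin from 76.5 ± 2.07 to 39.3 ± 1.51 FPKM (-0.94 ± 0.05, adjusted p = 2.5e-10). Copg1, a COPI coat subunit that serves retrieval, fell from 121 ± 3.38 to 61.4 ± 0.865 FPKM (-0.96 ± 0.04, adjusted p = 3.8e-11).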

How the data were processed

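The authors deposited FPKM values for 19608 genes, 1 column per library, made from mRNA libraries of full-length cDNA per the labels' protocols. How reads were aligned and counted is not given in these sources. The submitters' processing notes name the build mm10, whereas the organism label and the gene identifiers of the table are those of rat and the cells are of mouse origin as far as is known, so levels of different genes are to be read with care. Whole reads were worked out from the steps of the FPKM values, within a tolerance of 0.001 of a read, for all 19608 genes (100.0%). They gave scaling totals per library, of which the table holds 99.95 to 99.97%. Replicates differed beyond sampling noise (chi-square per degree of freedom 3.98 to 12.45).

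The 10532 genes whose mean over the 9 libraries reached 1 FPKM were tested on log2(FPKM + 1) with limma 3.58.1 in R 4.3.3, using 1 mean per group, a mean-variance trend and Benjamini-Hochberg adjustment over all tested genes within a comparison, at 0.05. The procedure was run on simulated data in which only a small part of the genes changed. Far more genes were called here, so that run does not show how the scaling behaved in these data. Fold changes are on this log2 scale and understate those of low genes; percent changes are between group means of FPKM. The alternatives were a pseudocount of 0.1, a minimum mean of 5 FPKM or none, TMM factors computed from the reads, quantile normalization, voom on the reads (which called 8 genes higher and 21 lower of 38 for cisplatin against PBS), array weights, a replicate block, fits on 2 groups and leaving out each library.

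The 39 genes and the lists were chosen with earlier results of these data known. Of 221 list entries 215 were matched by symbol and 3 by an older symbol. Any of the 39 may be named; from each list up to 4 called genes of largest change per comparison and a fixed few (such as Atf4, Ddit3, Vcp) were eligible. Promoters are from RefSeq; motifs were searched as exact letters on both strands.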

Additional observations from a re-analysis of the deposited data

How the results depend on the processing

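The 114 results for single genes (38 genes in 3 comparisons) were recomputed under 18 alternatives, of which the minimum of 5 FPKM covered 102. In every alternative that covered them 71 kept their direction and their side of the threshold, and a further set changed sign only while missing the threshold. Leaving out 1 library gave 7 to 9 genes higher and 20 to 21 lower for cisplatin against PBS, 6 to 7 and 11 to 14 for neomycin against PBS, and 11 and 19 to 20 for cisplatin against neomycin. The other settings gave 5 to 9 and 21 to 25, 4 to 7 and 12 to 18, and 8 to 11 and 18 to 23. Values that changed direction were those of Creld2 with cisplatin against PBS, at -0.13 with TMM factors (adjusted p = 0.0145) and -0.18 with quantile normalization (adjusted p = 0.00112). With quantile normalization this also held for Sdf2l1 (-0.11) and Serp1 (-0.02) against PBS, and for Sec61b against neomycin (-0.15). In all, the sign flipped 40 times among 20 values that passed in neither setting. Quantile normalization ended the calls of Xbp1 and Hsp90b1 between the drugs (adjusted p of 0.631 and 0.929). The cause was not tested. Deviations of same-numbered libraries of different groups correlated at 0.13 to 0.30 for number 1 and 0.05 to 0.19 for number 3. For number 2 the range was -0.05 to 0.03, and pairs of different numbers lay at -0.29 to 0.19. The titles do not say that a number marks a shared culture or day, so the main fit had no pairing. Whether some numbers share a batch was not tested. With the replicate block 9 genes were higher and 21 lower for cisplatin against PBS, 7 and 14 for neomycin against PBS, and 11 and 20 for cisplatin against neomycin. Since the median of all genes for cisplatin against PBS was 0.12 on the deposited scale and -0.01 with TMM factors, changes of that size depend on the scaling. At this depth Derl3, with 51 reads over all libraries, was too low to test.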

Other observations

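Of 16 tested calcium handling genes of the ER 9 fell and 5 rose with cisplatin (56.2% and 31.2%, against 30.5% and 47.5% of all tested genes). With neomycin 8 fell and 5 rose (50% and 31.2%, against 28.7% and 37.5%). Itpr1 and Itpr3 encode inositol trisphosphate receptors, which release calcium from the ER, and fell with cisplatin, Itpr1 from 8.02 ± 0.194 to 3.07 ± 0.154 FPKM (SD, n = 3; log2 fold change -1.15 ± 0.06, limma adjusted p = 4.6e-10) and Itpr3 from 27.1 ± 0.754 to 12.4 ± 0.529 FPKM (-1.06 ± 0.05, adjusted p = 1.8e-10). Tmco1, an ER membrane protein linked to calcium leak, stood at 79.8 ± 4.92 FPKM in PBS, 57.7 ± 4.14 in neomycin and 123 ± 6.72 in cisplatin.

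Genes of ER-phagy, the removal of ER by autophagy, were higher in 7 and lower in 2 of 14 cases with neomycin (50% and 14.3%, against 37.5% and 28.7% of all tested genes). With cisplatin 5 were higher and 6 lower (35.7% and 42.9%, against 47.5% and 30.5%). With TMM factors the cisplatin counts were 2 higher and 7 lower (14.3% and 50%, against 37.2% and 39.5% of all tested genes). The receptor gene Retreg1 (FAM134B) rose with cisplatin from 10.5 ± 0.955 to 19.5 ± 0.637 FPKM (0.84 ± 0.06, adjusted p = 1.8e-08), while Calcoco1 fell from 19.3 ± 0.819 to 9.2 ± 0.38 FPKM (-0.99 ± 0.05, adjusted p = 4.2e-10) and Ccpg1 fell from 17.9 ± 0.985 to 8.98 ± 0.22 FPKM (-0.92 ± 0.06, adjusted p = 7.2e-09). Atl2, an atlastin that fuses ER tubules, rose from 23.8 ± 0.621 to 54.1 ± 1.19 FPKM (1.15 ± 0.05, adjusted p = 9.1e-11). Ufm1, a ubiquitin-like modifier of ER ribosomes, fell with neomycin from 26.6 ± 1.64 to 12.8 ± 0.466 FPKM (adjusted p = 5.1e-09).

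A length per gene was worked out from the steps of the FPKM values, and it is not the genomic span. Across the 38 tested genes, the log2 fold change with cisplatin against PBS had a Spearman correlation of -0.07 with this length. Over all 10532 tested genes it was -0.26. For neomycin against PBS the correlations were 0.00 and 0.11, and for cisplatin against neomycin -0.23 and -0.29. These are descriptions over genes of the same 9 libraries.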
